A study of Oryza sativa Japonica Group with 20 samples.

Results

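Rice roots given 80 µM sodium arsenite for 6 h were set against roots given 20 µM for the same 6 h, with 1 mRNA library per dose. Both sets of seedlings were of the cultivar Nipponbare, 14 days old, grown in nutrient solution, and put into arsenite at the same moment at the start of the light period, so the roots were harvested at the same hour of day. The members of the comparison are the loci with 5 RPKM or more in either library, 12015 of the 57624 loci in the tables (20.9%). RPKM is a read count scaled for the length of the locus and the size of the library. The whole series holds 10 mRNA and 10 miRNA libraries of roots and shoots at 0, 6 and 24 h. The 3 other root mRNA libraries used beside the pair are untreated roots at 0 h and roots at 20 µM and at 80 µM for 24 h. The untreated roots were harvested at another hour of day than the pair, and no untreated library was made at 6 h. Arsenite and hour of day therefore cannot be told apart wherever untreated levels are set beside those of the pair. The labels do not say how many seedlings went into a library. With 1 library per group there is no replicate error and no test: a locus is described as higher or lower where the levels differ at least 2-fold on the log2(RPKM + 1) scale, which understates the difference of low loci.

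Arsenite binds neighbouring thiol groups and so disturbs the folding of proteins, and plants exposed to it are known to switch on heat shock genes. In that response heat stress transcription factors (HSFs) bind the promoters of chaperone genes. Small heat shock proteins then hold unfolded proteins in a soluble state, and HSP70, HSP90 and HSP101 refold them. Rice roots take up arsenite mainly through the silicon channel LSI1 and pass it towards the xylem with the exporter LSI2, bind it with thiol peptides made from sulfate, and store it in vacuoles.

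More loci stood lower than higher in the 80 µM library. At 80 µM, 1822 of the 12015 loci (15.2%) stood at least 2-fold higher than at 20 µM and 4599 (38.3%) at least 2-fold lower, while 5594 lay between these bounds. The median log2 difference was -0.56, and the middle 50% of loci ran from -1.51 to 0.46. At least 8-fold differences were seen at 275 loci higher at 80 µM (2.29%) and at 569 loci lower (4.74%). Highly expressed loci did not share this balance. Among the 693 loci with a mean of 100 RPKM or more over the 2 libraries, the median difference was 0.68, with 36.7% higher at 80 µM and 7.4% lower. The 1000 highest loci held 56.1% of the summed RPKM at 80 µM and 40.85% at 20 µM. The pool of transcripts was thus more concentrated in a few loci in the 80 µM library. Fewer cells of a type and less RNA per cell cannot be told apart in such bulk libraries.

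Depth differed between the 2 libraries, and no read counts come with the values. Low levels step by whole reads, and among loci listed at 0 in at least 2 of the 5 root libraries the commonest ratio between a low value at 80 µM and the same locus at 20 µM was 1.87 (67 of 272 such loci lay near it). By this estimate the 80 µM library held 0.54 times the reads of the 20 µM library. Loci listed at 0 numbered 38127 at 80 µM and 33384 at 20 µM, and 562 loci with 5 RPKM or more at 20 µM were listed at 0 at 80 µM, against 158 the other way. Among the 4833 loci with 20 RPKM or more in either library, 1125 stood higher at 80 µM (23.3%) and 1378 lower (28.5%), with a median of -0.04. The part of depth in the low loci was not tested. Of loci just inside the 5 RPKM minimum, with the higher library at 5.0 to 5.4 RPKM, there were 537 with a median of -0.89, and of those just outside, at 4.5 to 4.9 RPKM, there were 636 with a median of -1.08.

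**Figure D1:**
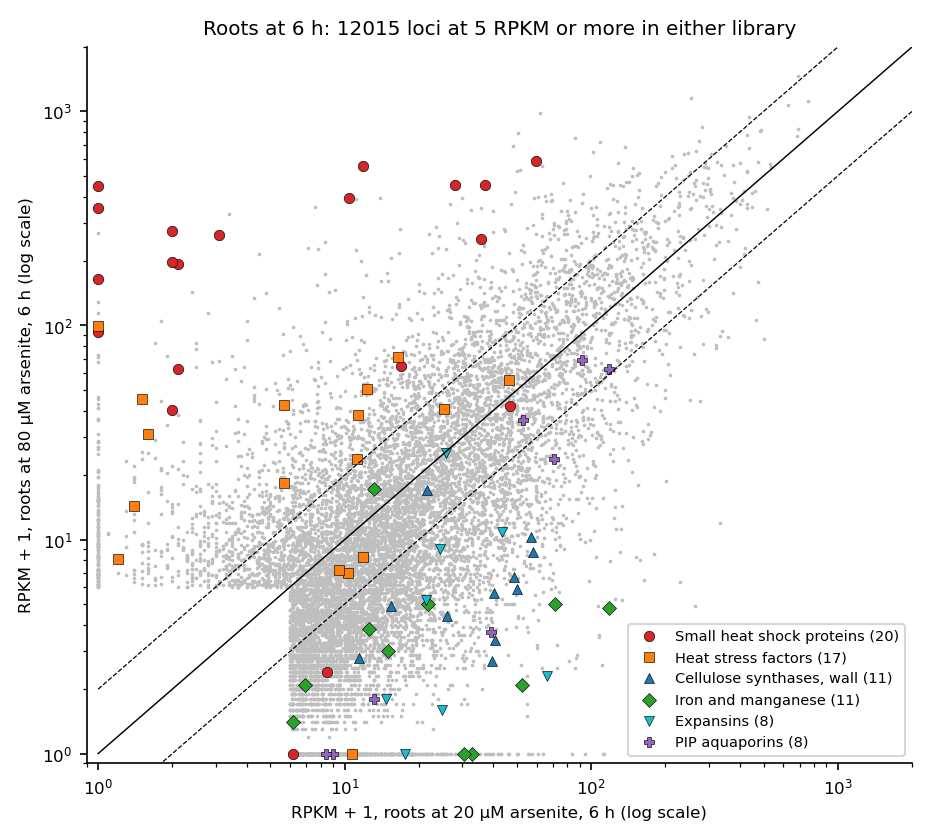
Level of each of the 12015 loci in the 80 µM library (vertical, RPKM + 1, log scale) against the 20 µM library (horizontal, RPKM + 1, log scale) of roots at 6 h, with the solid line at equal levels, the dashed lines at 2-fold and named members of 6 gene lists in colour. Most small heat shock protein genes and many heat stress factor genes lie in the upper left, and most of the wall, iron, expansin and aquaporin genes lie below the lower dashed line, with exceptions near or above the line of equal levels; a locus listed at 0 is drawn at 1.

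Names could be given to 383 loci of 37 gene lists, of which 279 reached the minimum. Of these 279, 63 stood higher at 80 µM (22.6%), 100 lower (35.8%) and 116 between the 2-fold bounds, against 15.2% higher and 38.3% lower over all loci. The lists were chosen with results of these data known, so these shares describe the lists alone. The counts of each list below are to be read beside the shares over all loci, and some lie near them. Lower loci were also commoner at low levels. They made up 66.5% of loci with a mean under 5 RPKM over the 2 libraries, and 41.6% at 5 to 10 RPKM. A compared locus with a mean under 5 RPKM must reach the minimum in 1 library and lie under it in the other. Wide differences among such loci therefore follow in part from the minimum itself. Of all compared loci, 3999 reached the minimum at 20 µM alone and 1002 at 80 µM alone. Medians above 1 were seen in the 3 heat shock lists and in no other of the 37, while 13 of the 30 lists with at least 4 compared members had medians below -1. Of the 37 medians, 24 kept their side of the 2-fold bound under every other choice of minimum or scale tried.

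**Figure D2:**
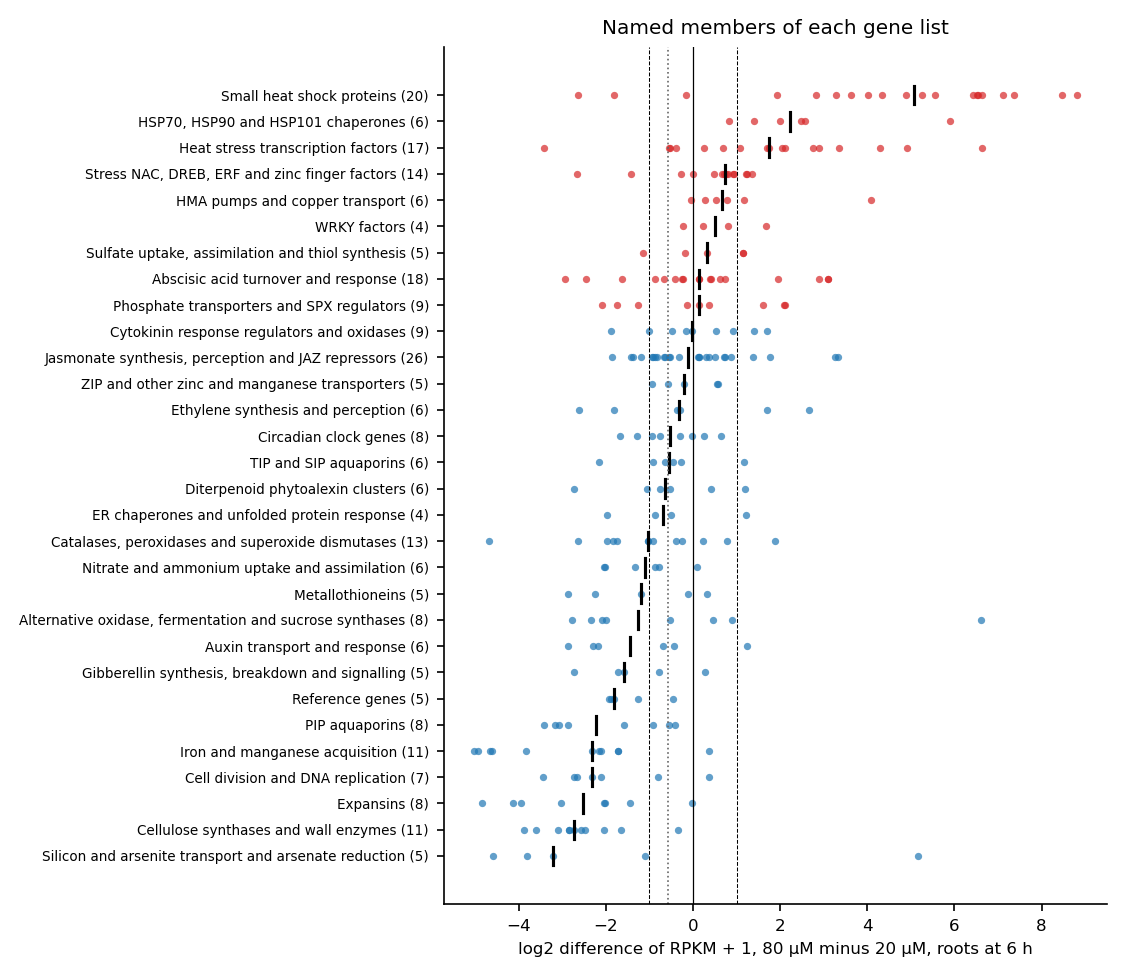
Difference between 80 and 20 µM (log2 of RPKM + 1) of each named gene that reached the minimum, by gene list, for the 30 lists with at least 4 such members (number in brackets). Short black bars are list medians, the dotted line is the median of all 12015 loci, the dashed lines are the 2-fold bounds, and points are red where the median is above 0 and blue where it is below; the 3 heat shock lists at the top have medians of 5.08, 2.23 and 1.75, and the silicon and arsenite list at the bottom has -3.22.

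Most compared heat stress transcription factors stood higher at 80 µM, in class A and in class B, with exceptions in both. Of the 23 named factors, 17 reached the minimum, of which 11 stood higher at 80 µM, 1 lower and 5 between the bounds, with a median of 1.75. HSFA6A (LOC_Os06g36930), a class A factor, had no listed transcript in untreated roots or at 20 µM at either time, and stood at 98.5 RPKM at 80 µM for 6 h and 149.6 for 24 h. HSFA2A (LOC_Os03g53340), of the A2 group that sustains the heat response in Arabidopsis, stood at 0.5 RPKM at 20 µM and 44.5 at 80 µM, a log2 difference of 4.92. HSFA2C (LOC_Os10g28340) stood at 0.6 and 30.2 RPKM (4.29). All 3 were therefore near the bottom of the scale at 20 µM and clearly expressed at 80 µM. HSFA2D stood at 0.4 and 13.4 RPKM (3.36). HSFA2E, also of the A2 group, differed by -0.56, within the bounds, as did HSFA5 of class A (-0.52) and HSFB1 of class B (-0.40). HSFB2A, of the class B factors that lack the activation motif of class A, stood at 4.7 RPKM at 20 µM and 41.4 at 80 µM (2.90). HSFC1B went the other way: it stood at 9.7 RPKM at 20 µM, and its level at 80 µM was listed as 0. HSFA1 (LOC_Os03g63750), of the group that in other plants starts the response from protein already present, was chosen after its values were seen: it stood at 28.3 RPKM in untreated roots, 24.2 at 20 µM and 39.7 at 80 µM, within the 2-fold bounds.

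Small heat shock proteins showed the widest differences of the lists. All 22 members had a printable name and 20 reached the minimum, of which 17 stood higher at 80 µM, 2 lower and 1 between the bounds, with a median of 5.08. HSP21.9 (LOC_Os11g13980) and HSP18.6 (LOC_Os02g54140) held the first and second place among all 12015 loci. HSP21.9 was listed at 0 in untreated roots and at 20 µM at 6 h and stood at 447.3 RPKM at 80 µM. HSP18.6 was listed at 0 at 20 µM and stood at 351.4 RPKM at 80 µM, with 0.9 in untreated roots. HSP23.2 (LOC_Os04g36750) was listed at 0 at 20 µM and stood at 163.2 RPKM at 80 µM. HSP21.9 and HSP18.6 were thus among the 180 loci at 300 RPKM or more in the 80 µM library, and these 2 genes had no listed transcript at the lower dose. HSP26.7 (LOC_Os03g14180), which works in the chloroplast, stood at 2.1 and 264.0 RPKM (6.42).

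A run of neighbouring small heat shock genes on chromosome 1 was not uniform. HSP16.6 (LOC_Os01g04340) was listed at 0 at 20 µM and stood at 92.1 RPKM at 80 µM. HSP16.9C (LOC_Os01g04360), HSP16.9A (LOC_Os01g04370) and HSP16.9B (LOC_Os01g04380), cytosolic class I proteins, stood at 1.1, 1.0 and 1.0 RPKM at 20 µM and at 193.1, 276.1 and 197.8 RPKM at 80 µM. HSP17.9B (LOC_Os01g04350), which lies among them by locus number and was picked out after its values were seen, stood at 45.7 RPKM at 20 µM and 40.9 at 80 µM. Its levels in the 5 root libraries ran from 29.0 to 45.7 RPKM, so this gene was expressed throughout while its neighbours were at or near 0 outside 80 µM. HSP18.9 was an exception in direction, with 5.2 RPKM at the lower dose and a listed 0 at the higher one, and HSP19.0, also picked out after its values were seen, stood at 7.5 and 1.4 RPKM. The HSP16.9 genes are closely related copies, and no source used here says how the counting shared reads among copies, so their separate levels are uncertain.

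**Figure D3:**
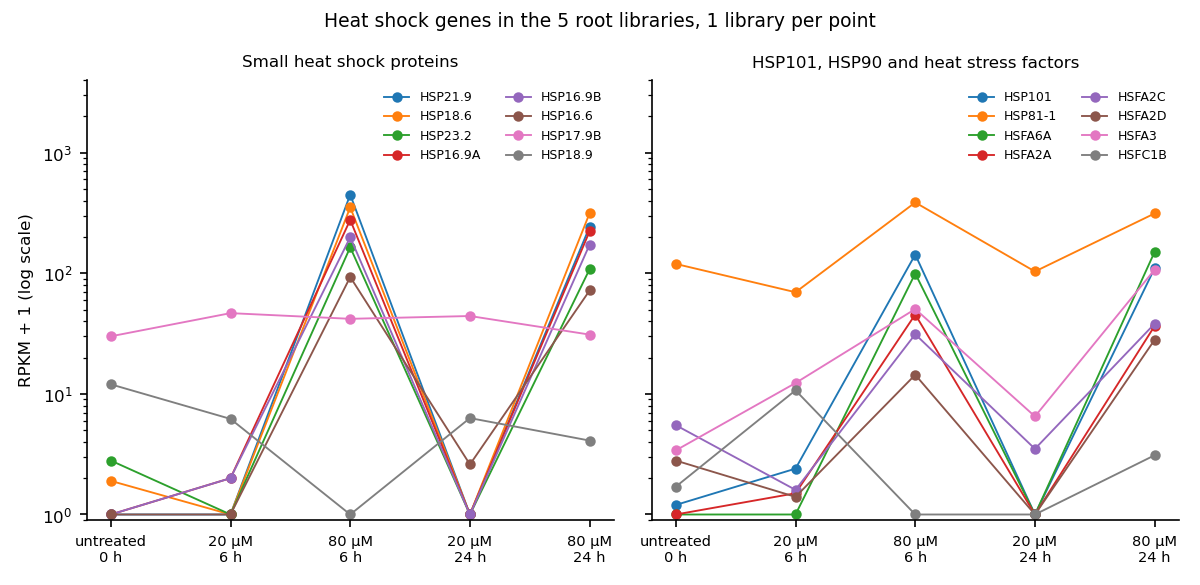
Level (RPKM + 1, log scale) of 8 small heat shock protein genes on the left, and of HSP101, the HSP90 gene HSP81-1 and 6 heat stress factor genes on the right, in the 5 root libraries, 1 library per point, with lines only to join the points of a gene. Most genes peak in both 80 µM libraries, whereas HSP17.9B stays between 29.0 and 45.7 RPKM and HSP18.9 and HSFC1B are listed at 0 at 80 µM for 6 h; a level listed at 0 is drawn at 1.

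Among the refolding chaperones, named members were 3 HSP90 and 3 HSP101-type genes, and no HSP70 gene is described, since none got a printable name. Of these 6, 5 stood higher at 80 µM and 1 lay within the bounds, with a median of 2.23. HSP101 (LOC_Os05g44340), the cytosolic disaggregase that pulls proteins out of aggregates, stood at 1.4 RPKM at 20 µM and 141.8 at 80 µM (5.89), with 0.2 in untreated roots. HSP81-1 (LOC_Os08g39140), a cytosolic HSP90, stood at 68.6 and 385.2 RPKM (2.47). Its relatives HSP81-2 and HSP81-3 stood at 26.7 and 71.8 RPKM (1.39) and at 3.1 and 6.3 RPKM (0.83). The organelle-type disaggregases CLPB2 and CLPB3 stood at 3.9 and 28.4 RPKM (2.58) and at 4.3 and 20.0 RPKM (1.99). HSP101 was almost silent at the lower dose, whereas HSP81-1 was already well expressed in untreated roots, at 118.5 RPKM. The list of endoplasmic reticulum chaperones and factors of the unfolded protein response did not share this pattern at 6 h. Of 4 compared, BZIP60, a factor of the unfolded protein response, stood higher at 19.1 and 45.9 RPKM (1.22), and PDIL1-1, a protein disulfide isomerase, lower at 107.2 and 26.7 RPKM (-1.97). BIP1, the main chaperone of that compartment, stood at 81.5 and 44.2 RPKM (-0.87), within the bounds.

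Genes for silicon and arsenite channels stood lower at 80 µM, with 1 exception. Of 6 named members 5 reached the minimum, 4 of them lower and 1 higher, with a median of -3.22. With a minimum of 20 RPKM only LSI2 and NIP3-3 remain, and the median is 0.30. LSI1 (LOC_Os02g51110), the root silicon channel that also admits arsenite, stood at 59.7 RPKM in untreated roots, 18.7 at 20 µM and 0.4 at 80 µM, a log2 difference between the doses of -3.81. LSI2 (LOC_Os03g01700), the exporter that works with it, stood at 103.9, 53.9 and 1.3 RPKM (-4.58). LSI6 (LOC_Os06g12310), a related channel best known from shoots, stood at 29.4 and 8.3 RPKM and was listed at 0 at 80 µM. In all 3 the order was untreated roots, then 20 µM, then 80 µM, with the untreated roots taken at another hour of day. NIP3-3 (LOC_Os08g05590), a channel of the same family that passes arsenite when expressed in other cells, ran against them. It stood at 1.0 RPKM in untreated roots, was listed at 0 at 20 µM and stood at 35.1 at 80 µM. NIP1-1 (LOC_Os02g13870), another channel of the family, stood at 0.2 RPKM in untreated roots, 9.6 at 20 µM and 3.9 at 80 µM (-1.11).

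Iron and manganese uptake genes were lower at 80 µM in 10 of the 11 compared, with none higher and a median of -2.32. IRT2 (LOC_Os03g46454), a ferrous iron transporter, stood at 26.7 RPKM in untreated roots and 31.7 at 20 µM and was listed at 0 at 80 µM. The nicotianamine synthase genes NAS1 and NAS2, whose product is the precursor of the iron-binding phytosiderophores, stood at 297.0 and 344.0 RPKM in untreated roots and at 29.5 and 51.6 at 20 µM. At 80 µM NAS1 was listed at 0 and NAS2 stood at 1.1 RPKM (-4.65). IRO3 (LOC_Os03g26210), a transcription factor of the iron deficiency response, was the one most strongly expressed at 20 µM, at 117.1 RPKM against 65.8 in untreated roots, and stood at 3.8 at 80 µM (-4.62). NRAMP1 (LOC_Os07g15460), an iron and metal transporter, stood at 70.3 and 4.0 RPKM (-3.83). NAAT1, the next enzyme of the phytosiderophore route, stood at 14.0 and 2.0 RPKM (-2.32). IRT2, IRO3 and NRAMP1 were thus at or above their untreated levels at 20 µM, whereas NAS1, NAS2 and NAAT1 were well below theirs. The untreated roots also differ in hour of day, and its part was not tested.

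**Figure D4:**
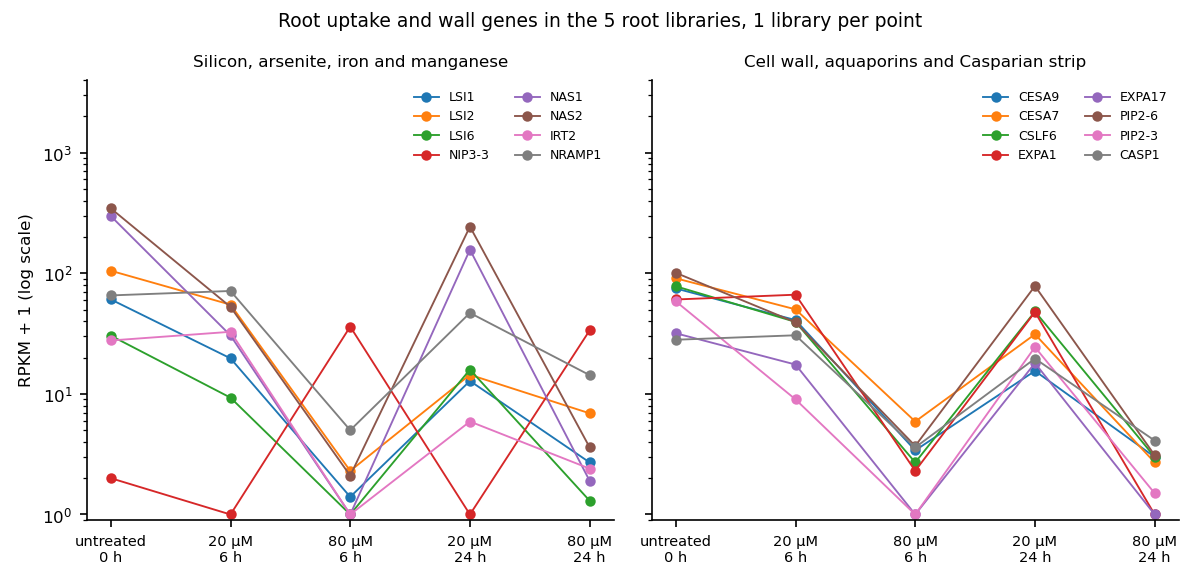
Level (RPKM + 1, log scale) of 8 silicon, arsenite, iron and manganese genes on the left and 8 cell wall, aquaporin and Casparian strip genes on the right, in the 5 root libraries, 1 library per point, with lines only to join the points of a gene. All but NIP3-3 are lowest or near their lowest in the 80 µM libraries, and NIP3-3, at 35.1 and 32.6 RPKM, is high only there; a level listed at 0 is drawn at 1.

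Cell wall genes were lower nearly throughout. Of 13 named cellulose synthases and wall enzymes 11 reached the minimum, of which 10 stood lower at 80 µM and none higher, with a median of -2.74. CSLF6 (LOC_Os08g06380), which makes the mixed-linkage glucan of grass walls, stood at 77.0 RPKM in untreated roots, 38.5 at 20 µM and 1.7 at 80 µM (-3.87). CESA9 and CESA7, cellulose synthases of the secondary wall, stood at 39.9 and 2.4 RPKM (-3.59) and at 49.2 and 4.9 RPKM (-3.09). CESA3 and CESA8, of the primary wall type, stood at 39.3 and 4.6 RPKM and at 47.4 and 5.7 RPKM, both a difference of -2.85, and CESA1, of the same type, at 57.2 and 7.7 RPKM (-2.74). Both wall types were lower. Of 8 compared expansins, proteins that loosen walls as cells grow, 7 stood lower and none higher, with a median of -2.53. EXPA1 stood at 65.4 RPKM at 20 µM, close to the 59.6 of untreated roots, and at 1.3 at 80 µM (-4.85). EXPA17 stood at 16.5 RPKM and was listed at 0 at 80 µM, and EXPB4 stood at 23.8 and 0.6 RPKM (-3.95). EXPA4 stood at 13.7 and 0.8 RPKM (-3.03). CASP1, which builds the Casparian strip of the endodermis, stood at 29.6 and 2.6 RPKM (-3.09), and SHR1, a factor that patterns the root layers, at 9.2 and 1.8 RPKM (-1.87).

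Among plasma membrane aquaporins, 5 of 8 compared stood lower and none higher, with a median of -2.22. PIP2-6 stood at 99.8 RPKM in untreated roots, 38.2 at 20 µM and 2.7 at 80 µM (-3.41). PIP2-3 and PIP2-4 stood at 8.0 and 7.4 RPKM at 20 µM and were both listed at 0 at 80 µM. PIP2-2 and PIP1-1 stood at 12.2 and 0.8 RPKM (-2.87) and at 69.8 and 22.7 RPKM (-1.58). PIP1-3 stood at 117.1 and 61.8 RPKM (-0.91), within the bounds. The median over the members with 20 RPKM or more in either library was -0.91. Of 6 compared tonoplast and small intrinsic aquaporins, TIP2-1 stood lower at 42.2 and 8.7 RPKM (-2.15), TIP1-2 higher at 2.3 and 6.5 RPKM (1.18), and 4 lay within the bounds.

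Single members of the metal pump and thiol lists stood higher. Of 6 compared metal pumps and copper transporters 2 did and 4 lay within the bounds, with a median of 0.66. HMA5 (LOC_Os04g46940), a copper pump that loads the xylem, stood at 23.7 RPKM in untreated roots, 15.8 at 20 µM and 282.6 at 80 µM (4.08). HMA9, a metal efflux pump, stood at 44.1 and 101.5 RPKM (1.18), while the pumps HMA2 and HMA4 stood at 12.3 and 21.9 RPKM (0.78) and at 36.3 and 44.3 RPKM (0.28). Of 5 compared genes of the sulfate and thiol list 2 stood higher, 1 lower and 2 within the bounds. APR1, which reduces activated sulfate, stood at 30.7 RPKM in untreated roots, 219.6 at 20 µM and 485.2 at 80 µM (1.14). RCS1, a cysteine synthase, stood at 59.5 and 133.8 RPKM (1.16), whereas its relative RCS3 stood at 43.9 and 19.2 RPKM (-1.15). GSH1-1, whose enzyme opens glutathione synthesis, stood at 10.1 and 8.7 RPKM (-0.19). APR1 thus stood above its untreated level in both libraries and highest at the higher dose, and the glutathione gene stood at like levels in both. Of the metallothioneins, small proteins that bind metals through thiols, 3 of 5 compared stood lower and none higher, with MT2C at 124.3 and 16.1 RPKM (-2.87) and MT1A at 398.5 and 369.3 RPKM (-0.11). GSTU6, the only glutathione S-transferase with a printable name, stood at 11.5 RPKM in untreated roots, 175.7 at 20 µM and 232.8 at 80 µM (0.40).

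Antioxidant genes were mixed, with 7 of 13 compared lower, 1 higher and a median of -1.02. Over all loci 38.3% were lower and 15.2% higher, with a median of -0.56. CATA (LOC_Os02g02400), a catalase, stood at 24.9 RPKM at 20 µM and was listed at 0 at 80 µM. APX7, an ascorbate peroxidase, stood at 37.6 and 5.2 RPKM (-2.64), and RBOHB, an NADPH oxidase that produces superoxide, at 21.1 and 4.6 RPKM (-1.98). TRXH (LOC_Os07g08840), a cytosolic thioredoxin that reduces protein disulfides, was the one higher member, at 68.3 RPKM in untreated roots, 121.0 at 20 µM and 451.6 at 80 µM (1.89).

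Genes of sugar use and fermentation were mixed, with 1 far higher member. AMY3D (LOC_Os08g36910), an α-amylase known to be switched on by sugar starvation, stood at 4.1 RPKM in untreated roots, 2.4 at 20 µM and 329.7 at 80 µM (6.60). Its neighbour AMY3E (LOC_Os08g36900), a close relative under the minimum, was listed at 0 in both libraries of the pair. SUS1, a sucrose synthase, stood at 182.8 RPKM in untreated roots, 82.2 at 20 µM and 11.2 at 80 µM (-2.77). The alcohol dehydrogenase genes ADH2 and ADH1 stood at 53.1 and 9.6 RPKM (-2.35) and at 20.5 and 4.4 RPKM (-1.99), and the pyruvate decarboxylase gene PDC2 at 47.4 and 10.4 RPKM (-2.09). In this list of 8 compared members 4 stood lower, AMY3D alone higher and 3 within the bounds, with a median of -1.25. Over all loci 38.3% were lower and 15.2% higher, with a median of -0.56.

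Most abscisic acid genes lay within the bounds. Of 18 compared, 4 stood higher, 3 lower and 11 within, with a median of 0.14. LEA3 (LOC_Os05g46480), a protein of drying tissues, stood at 4.5 RPKM in untreated roots, 38.9 at 20 µM and 340.0 at 80 µM (3.10). The dehydrin genes RAB21 and RAB16D stood at 1.3 and 18.8 RPKM (3.11) and at 0.6 and 10.9 RPKM (2.89). The dehydrin genes RAB16C and DHN1, picked out after their values were seen, stood within the bounds at 3.9 and 5.5 RPKM (0.41) and at 234.4 and 258.7 RPKM (0.14). SALT, a lectin induced by salt, stood at 73.3 and 288.6 RPKM (1.96). NCED3, which makes the committed step of abscisic acid synthesis, stood at 0.6 RPKM in untreated roots, 14.3 at 20 µM and 1.8 at 80 µM (-2.45). PP2C49, a phosphatase of the family that restrains abscisic acid signalling, stood at 6.7 RPKM at 20 µM and was listed at 0 at 80 µM.

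The jasmonate list stayed mostly within the bounds, at 18 of 26 compared members, with 4 higher, 4 lower and a median of -0.11. Its share higher was near the 15.2% over all loci, and its share lower was under the 38.3%. OPR3 (LOC_Os06g11260), of the oxophytodienoate reductase family, was listed at 0 in untreated roots and stood at 9.2 RPKM at 20 µM and 100.9 at 80 µM (3.32). AOS3, an allene oxide synthase, was listed at 0 at 20 µM and stood at 8.5 RPKM at 80 µM. AOC, which makes the precursor that jasmonate synthesis goes through, stood at 108.1 and 29.3 RPKM (-1.85), and JAZ9, a repressor of jasmonate signalling, at 117.7 and 43.5 RPKM (-1.42). OPR3 lies in a run of related OPR genes, so reads shared among copies make its level uncertain.

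Among the other hormone lists no list had more than 2 members higher. ACS2, which makes the ethylene precursor, stood at 17.7 RPKM in untreated roots, 43.3 at 20 µM and 280.7 at 80 µM (2.67). The ethylene receptor genes ETR2 and ETR3 stood on opposite sides, at 12.9 and 44.0 RPKM (1.69) and at 11.2 and 1.0 RPKM (-2.61), and the median of the 6 compared, -0.33, becomes 2.18 with a minimum of 20 RPKM. The auxin genes PIN2, an efflux carrier of the root tip, and FIB, of auxin synthesis, stood at 18.2 and 2.9 RPKM (-2.30) and at 11.7 and 1.8 RPKM (-2.18). SAUR39, an early auxin response gene, stood at 6.3 RPKM at the lower dose with a listed 0 at the higher one. GH3.2, which conjugates auxin to amino acids, stood higher at 18.5 and 45.4 RPKM (1.25). For cytokinin, the response regulator RR6 stood at 21.4 and 71.6 RPKM (1.70) and the receptor HK4 at 9.2 and 1.8 RPKM (-1.87), with 2 of 9 compared members on each side and a median of -0.01 that becomes 0.74 with a minimum of 20 RPKM. Of 5 compared gibberellin genes 3 stood lower and none higher, led by SLRL1, a relative of the DELLA repressor SLR1, at 12.4 and 1.0 RPKM (-2.74).

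Stress transcription factors of the NAC, DREB and zinc finger families stood mostly within the bounds, at 9 of 14. NAC3, NAC4 and SAP8 were higher, at 101.3 and 261.5 RPKM (1.36), 119.1 and 276.8 RPKM (1.21) and 56.1 and 134.7 RPKM (1.25). The DREB1 factors, known from the cold response, included lower members: DREB1B stood at 4.3 RPKM in untreated roots, 15.9 at 20 µM and 1.7 at 80 µM (-2.65), and DREB1C at 5.9, 28.5 and 10.1 RPKM (-1.41). DREB1A, of the same group, differed by 0.92, within the bounds. Of 4 compared WRKY factors WRKY24 stood higher, at 121.5 and 389.0 RPKM (1.67).

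Phosphate genes divided evenly, with 3 of 9 compared higher, 3 lower and 3 within the bounds, and a median of 0.14 that becomes -1.49 with a minimum of 20 RPKM. This list and the nitrogen list below stand beside 15.2% higher and 38.3% lower over all loci. The transporter PT5 and the phosphate sensor gene SPX2 stood at 2.0 and 12.0 RPKM (2.12) and at 1.7 and 10.4 RPKM (2.08), and the transporter PT1 at 74.5 and 16.8 RPKM (-2.08). Of 6 compared nitrogen genes 3 stood lower and none higher, among them AMT2-1, an ammonium transporter, at 26.8 and 5.8 RPKM (-2.03), and NAR2.1, the partner protein of nitrate carriers, at 9.5 and 1.6 RPKM (-2.01). All 5 compared ZIP and other zinc genes lay within the bounds, from -0.94 to 0.57. The diterpenoid phytoalexin list had 1 of 6 compared members higher, 2 lower and 3 within the bounds, with a median of -0.64. KSL4, a synthase of the momilactone cluster, was the higher one, at 7.6 and 18.8 RPKM (1.20). CYP99A3 of the same cluster had 5.7 RPKM at the lower dose and a listed 0 at the higher one. CPS4, CYP99A2 and MAS of that cluster differed by -1.06, -0.76 and -0.53. The chitinase genes CHT1 and CHT2 were the compared defence genes and lay within the bounds, at 51.3 and 56.1 RPKM and at 427.5 and 352.8 RPKM. PLD1, a phospholipase D, stood at 60.3 and 14.0 RPKM (-2.03) and CAD2, of lignin synthesis, at 86.0 and 25.1 RPKM (-1.74), while PAL, which opens the phenylpropanoid route, stood at 448.6 and 414.7 RPKM (-0.11). TPP1, a trehalose phosphatase, stood at 19.2 and 32.5 RPKM (0.73).

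Cell division genes were low at 80 µM. Of 7 compared, 5 stood lower and none higher, with a median of -2.32. With a minimum of 20 RPKM only KRP1, an inhibitor of cyclin-dependent kinases, remains, at 21.2 and 27.7 RPKM (0.37). The mitotic cyclin genes CYCB1-1 and CYCB2-1 stood at 24.6 and 11.3 RPKM in untreated roots and at 9.9 and 5.6 at 20 µM, and both were listed at 0 at 80 µM. PCNA, the sliding clamp of DNA replication, stood at 28.5, 14.3 and 1.4 RPKM (-2.67), and CDKB2-1, a mitotic kinase, at 25.7, 12.5 and 1.7 RPKM (-2.32). CDKA-1, a kinase that drives the cell cycle, stood at 5.5 and 2.7 RPKM (-0.81), within the bounds. As with the silicon genes, the untreated roots held the highest level of these 4 lower genes and the 80 µM roots the lowest of the 3 libraries, and all of these levels lie where the 80 µM library is thin in reads.

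Genes often taken as constant were not so here. Of 5 reference genes 4 stood lower at 80 µM and none higher, with a median of -1.81. ACT1, an actin, stood at 185.0 RPKM in untreated roots, 121.4 at 20 µM and 31.1 at 80 µM (-1.93), and GAPC2, a glycolytic dehydrogenase, at 120.6, 103.2 and 28.7 RPKM (-1.81). GAPC1 stood at 147.5 and 107.4 RPKM (-0.45). Scaling the libraries to the median ratio of loci at 5 RPKM or more in both would raise each difference by at most 0.11, which leaves these 4 genes lower.

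The tissue label and the hour of day were looked at through marker genes. Leaf markers were low in both libraries: the summed level of CAB1R, CAB2R, RBCS and RCA, genes of the light-harvesting antenna and of carbon fixation, was 24.5 RPKM at 20 µM and 8.5 at 80 µM, against 200.8 in untreated roots. The root markers LSI1, LSI2, CASP1 and NAR2.1 were present at 20 µM, and NRT2.1 was listed at 0 in both libraries. At 80 µM PIP2-3 and PIP2-4 were listed at 0, LSI1 was at 0.4 RPKM, and none of these markers stood above 2.6 RPKM. They were chosen by hand, mostly from genes described above as lower, so they do not test the tissue label at 80 µM. The morning clock gene LHY minus the mean of 5 day genes (GI, PRR1, PRR95, PRR73 and PRR37), on the log2 scale, was -0.85 at 20 µM and -1.01 at 80 µM, against 2.07 in untreated roots. Of 8 compared clock genes PRR37 and PRR73 stood lower, at 5.4 and 1.0 RPKM (-1.68) and at 25.3 and 9.8 RPKM (-1.28), and 6 lay within the bounds.

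The same contrast of doses in the 24 h libraries shares no library with the 6 h pair, but differs from it in time and so is no replicate. At 24 h 12608 loci reached the minimum, of which 1983 stood higher at 80 µM (15.7%) and 3203 lower (25.4%), with a median of -0.27. Of the 1822 loci higher at 6 h, 905 were also higher at 24 h, which is 49.7% of the 6 h list and 45.6% of the 24 h list. Of the 4599 lower at 6 h, 1803 were also lower at 24 h, 39.2% of the 6 h list and 56.3% of the 24 h list. Opposite calls were few, with 56 loci higher at 6 h and lower at 24 h and 87 the reverse. Of the 275 loci at least 8-fold higher at 6 h, 77.5% were also at least 2-fold higher at 24 h, and of the 569 at least 8-fold lower at 6 h, 57.6% were also at least 2-fold lower. Across the 10760 loci compared at both times, Pearson's r of the log2 differences was 0.67 and Spearman's rho 0.62. Both describe genes, which are not independent replicates and share the depth of their libraries. By the same estimate of depth, the 24 h libraries held 0.59 (20 µM) and 0.67 (80 µM) times the reads of the 20 µM library at 6 h. The 80 µM library was thus the shallower of its pair at 6 h alone, and the part of depth at either time was not tested.

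The heat shock lists stood on the same side at 24 h. Of 19 small heat shock genes compared at 24 h 17 stood higher and none lower, with a median of 6.42, and all 17 that were higher at 6 h were among them. At 80 µM HSP21.9, HSP18.6 and HSP101 stood at 242.1, 314.5 and 109.2 RPKM, with no listed transcript at 20 µM. AMY3D stood at 2.6 RPKM at 20 µM and 354.1 at 80 µM at 24 h (6.62), and HMA5 at 34.9 and 240.8 RPKM (2.75). The wall and expansin lists kept their side, with 11 of 12 and 10 of 10 compared members lower at 24 h. The endoplasmic reticulum list, mixed at 6 h, had 2 of 4 compared members higher at 24 h and none lower, with a median of 1.1. The nicotianamine synthase genes stood at 155.8 RPKM (NAS1) and 242.6 (NAS2) at 20 µM at 24 h, and at 0.9 and 2.6 at 80 µM. Their levels at 20 µM were higher at 24 h than at 6 h, and the part of hour of day in this was not tested. LSI2 differed less at 24 h, at 13.4 and 5.9 RPKM (-1.06), and its level at 20 µM was 53.9 RPKM at 6 h. The clock readout separated the doses at 24 h, at 1.75 at 20 µM and -0.68 at 80 µM, unlike at 6 h, and its part in the differences at 24 h was not tested.

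**Figure D5:**
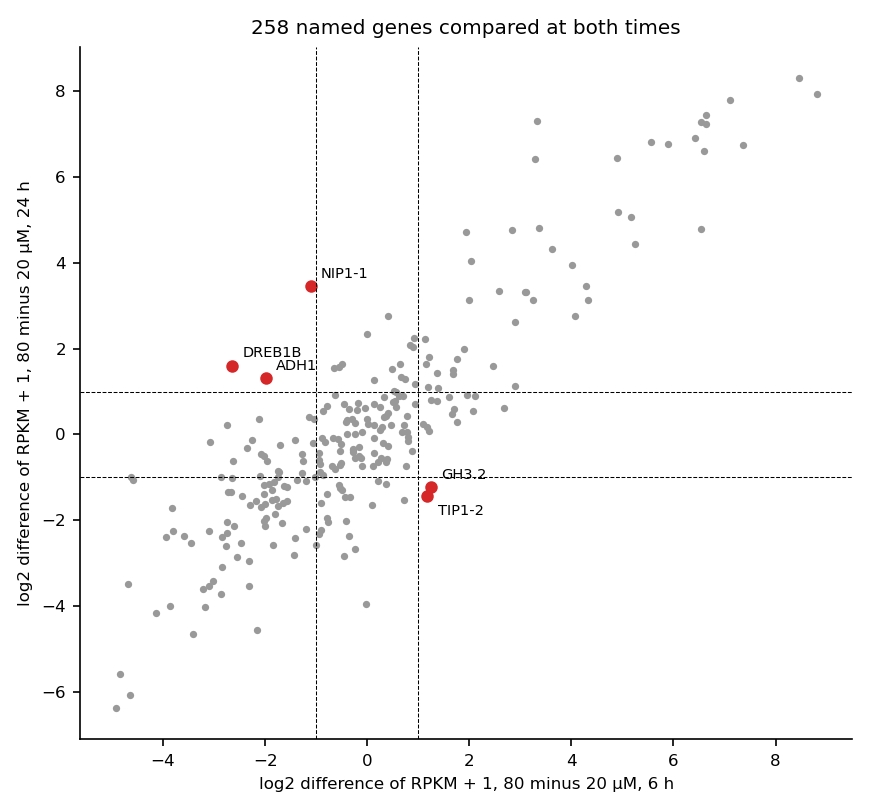
Difference between 80 and 20 µM (log2 of RPKM + 1) at 24 h (vertical) against 6 h (horizontal) for the 258 named genes that reached the minimum at both times, 1 point per gene, dashed lines at 2-fold. Most points past 2-fold lie in the lower left or upper right, and the 5 labelled red points, among them NIP1-1 at -1.11 and 3.45, are past 2-fold in opposite directions.

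Small RNA libraries of roots under the same conditions gave a second readout, as reads scaled to library size. Of 185 miRNAs, 88 were listed at 0 at 80 µM and 54 at 20 µM at 6 h. The smallest values above 0 were 0.2 and 0.1, and the part of depth was not tested. At 6 h, 8 miRNAs reached a value of 100 in either library, of which 2 stood at least 2-fold higher at 80 µM (25.0%) and 2 lower (25.0%) on the log2(value + 10) scale. miR812j stood at 224.3 at 20 µM and 4.2 at 80 µM (-4.04), with 15.5 in untreated roots. At 24 h it again stood at 212.2 at 20 µM and 3.5 at 80 µM. miR1432 stood at 143.9 and 39.9 (-1.62). miR444c.2, of a family that targets MADS-box genes, stood at 131.2 and 362.3 (1.40), and miR319b, which targets TCP factors, at 191.9 and 418.3 (1.08). The most abundant, miR166n, stood at 1379.8 and 1903.6 (0.46), within the bounds, as were miR159b, miR167j and miR168a.

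Some of the widest differences were at loci for which no name could be given. LOC_Os07g14140 and LOC_Os11g32890 were listed at 0 in untreated roots and at 20 µM at both times and stood at 269.8 and 127.8 RPKM at 80 µM for 6 h, and at 162.9 and 102.3 RPKM at 80 µM for 24 h. LOC_Os08g37300 and LOC_Os07g40890 stood at 111.9 and 110.8 RPKM at 20 µM and were listed at 0 at 80 µM for 6 h. At 80 µM for 24 h the latter pair stood at 60.9 and 55.7 RPKM, so among the 5 root libraries the listed 0 was seen at 80 µM for 6 h alone.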

How the data were processed

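Per the labels' protocols, poly(A) RNA of roots was copied with random hexamers, which does not keep strand, and sequenced as paired-end reads of 75 nt. The authors deposited RPKM values per MSU locus with 1 decimal. The small RNA values are called RPKM in the deposited tables, but low values step alike for every miRNA, so they are treated as RPM (reads scaled to library size by the authors). BWA was used per the submitters' processing notes; no source used here gives its version, the genome build or the counting.

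The 2 libraries were compared as log2(RPKM + 1) with Python 3.11.15, numpy 2.4.6 and pandas 2.3.3 (figures with matplotlib 3.10.9), for loci at 5 RPKM or more in either, with calls at 2-fold; miRNAs as log2(value + 10) at 100 or more in either. Depth is unknown beyond the relative estimate given, so no intervals are printed. There was no test, since each group has 1 library. The calling step was tested on simulated pairs of equal depth, with known changes at loci above the minimum. That test did not cover unequal depth or the sampling of reads at low levels. The tables do not pair loci with names. Of 604 locus identifiers written by hand in 37 lists, 384 got a printable name, where the RefSeq table of assembly ASM3414082v1 lists the symbol on the same chromosome and in the order of the locus numbers, and 1 of these was not among the rows; 9 names used an alias looked up later. Names in runs of close copies are less certain. Names in the text come from, per list, the 6 members with the largest difference and any member listed at 0 in 1 library, and over all names the 10 highest and 10 lowest; not all are printed, and those printed were picked with their values in view; others are said to be chosen after their values were seen, and further members are given for contrast within a family or as markers. Members and lists were chosen with earlier results of these data known, and the small heat shock list was extended from the reference table after the tables were opened. Promoter motifs, sequences and shoots were not analysed here. Alternatives were pseudocounts of 5 and 0.1, no minimum, a minimum of 20 RPKM and 2 scalings.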

Additional observations from a re-analysis of the deposited data

Results flagged for a closer look

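In 5 named genes and 2 miRNAs the difference between 80 and 20 µM passed 2-fold in opposite directions at 6 h and 24 h; with 1 library per group the change of direction was not tested. ADH1, an alcohol dehydrogenase, differed by -1.99 at 6 h and 1.31 at 24 h, with 20.5 and 4.4 RPKM at 20 and 80 µM at 6 h and 10.1 and 26.6 RPKM at 24 h. DREB1B differed by -2.65 and 1.60, and its levels at 24 h were 1.5 and 6.6 RPKM. NIP1-1, a channel of the arsenite-permeable family, differed by -1.11 and 3.45, and stood at 0.9 RPKM at 20 µM and 19.7 at 80 µM at 24 h. GH3.2, which conjugates auxin, differed by 1.25 and -1.23, and the tonoplast aquaporin TIP1-2 by 1.18 and -1.44. The miRNA miR319b differed by 1.08 and -1.74 and miR444c.2 by 1.40 and -1.90 on the log2(value + 10) scale.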

How the results depend on the processing

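Of the 279 named genes compared, 250 kept their side of the 2-fold bound under every alternative that could give a value, and none reversed; a minimum of 20 RPKM left 187 of them. The counts at 6 h depended on the low loci. The 4599 lower loci became 2838 with a pseudocount of 5 and 8624 with no minimum, and a minimum of 20 RPKM left 1125 higher and 1378 lower. At 24 h, under alternatives chosen after seeing the data, the 3203 lower loci became 1879 with a pseudocount of 5, no minimum gave 3348 higher and 5646 lower, and a minimum of 20 RPKM left 994 and 1136. The other counts moved by at most 1.5 times. The share of called loci that were higher at 6 h was 28.4%, 31.5% after scaling to the median ratio, 22.8% with no minimum and 44.9% with a minimum of 20 RPKM. Of the 37 list medians, 24 kept their side of the 2-fold bound under every alternative that could give a value. A pseudocount of 5 brought 6 medians within the bound, and no minimum also 6. With a minimum of 20 RPKM 5 medians came within the bound on the same side of 0. With that minimum 5 list medians changed sign. Those of cell division and of silicon and arsenite transport, past 2-fold otherwise, became 0.37 and 0.30 with few members left, and those of the ethylene, phosphate and cytokinin lists, within 2-fold otherwise, became 2.18, -1.49 and 0.74. Among miRNAs a minimum of 50, also chosen later, gave 3 higher and 2 lower of 13. No paired analysis was possible because each group has 1 library. Depth limits the levels near 0 at 80 µM, values carry 1 decimal, and no difference has a replicate check.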
